A study of Mus musculus with 4 samples.

Results

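The myeloid paired immunoglobulin receptors are surface receptors with Ig-type domains that come in related inhibitory and activating forms. The inhibitory forms carry ITIM motifs in the tail that recruit the phosphatases SHP-1 and SHP-2, and the activating forms signal through the ITAM adaptors DAP12 and FcRγ. They are best known on macrophages, monocytes, granulocytes, mast cells and dendritic cells, where they set the threshold for phagocytosis and activation, and some of them, such as gp49B (Lilrb4a), are also known on activated NK cells. A list of 9 symbols (Sirpa, Pirb, Lilrb4a, Lilr4b, Siglece, Cd300a, Cd300lf, Cd33 and Trem2) was looked up among the 35798 named genes of the count table, and 8 of the 9 were found. No row is named Lilr4b. The row Lilrb4b carries what is known as the newer symbol of that gene (gp49A), but the tables used here do not pair both symbols, so its values stand beside the 8 and are not counted with them. The list was picked with the wild-type and TNFR2 KO levels in view, so the difference between genotypes is given for its genes as a description, without a test.

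NK cells of 2 donor genotypes, wild-type marked by CD45.1 and TNFR2 KO marked by CD45.2, were placed in the same NSG hosts, which were then infected with MCMV, and 3.5 days later Ly49H+ cells of either CD45 form were enriched and sorted from the spleen for bulk, polyA-selected RNA-seq. Ly49H is the NK cell receptor for the m157 protein of MCMV, and TNFR2 KO cells lack the TNF receptor encoded by Tnfrsf1b. No uninfected group was analysed here. Each genotype has 2 libraries, and same-numbered libraries of both genotypes came from 1 spleen pool of 3 hosts. The mice were young adults. The libraries come from a single experiment in duplicate, so p-values measure only the spread between these pools, which may be technical. NSG hosts lack T, B and NK cells of their own but keep monocytes, macrophages and granulocytes, and NOD-derived strains such as NSG are known to carry CD45.1, the form that also marked the wild-type donors. Donor genotype, CD45 form and sort gate thus differ together between both groups and cannot be told apart. Totals ran from 32713256 to 39543650 counts per library. Levels are given as CPM, counts brought to a common library size with edgeR's TMM factors. The targeted gene Tnfrsf1b measured 264.6 and 268.5 CPM in wild-type and 55.1 and 58.6 CPM in TNFR2 KO.

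The sorted cells carried NK cell RNA in every library. A list of 12 NK cell markers, among them Klra8 (Ly49H), Ncr1 and Klrb1c, summed to 16148 and 16229 CPM in wild-type and to 29446 and 29686 CPM in TNFR2 KO. Macrophage or monocyte RNA was present too and moved the other way. Of 25 such markers 24 could be tested, and 21 were lower in TNFR2 KO at an adjusted p under 0.05 with an absolute log2-fold change over 1 (edgeR's quasi-likelihood test), with a median log2-fold change of -2.89. Across all 13822 genes tested 11.8% were lower past both limits, 1.56% were higher, and the median log2-fold change was -0.0028. Lyz2 (lysozyme) had a log2-fold change of -2.79 and Mpeg1 (perforin-2) of -3.29. The summed level of the 25 markers lay between 3326 and 3391 CPM in wild-type and between 1408 and 1425 CPM in TNFR2 KO, and Clec4f, which marks liver macrophages, was at 0 in every library. The 3 markers that were higher in TNFR2 KO at an adjusted p under 0.05 but short of the limit on the fold change, Ccr2, Ly6c2 and Cx3cr1, are genes that NK cells also express. Without these 3, left out after their values were seen, the remaining 22 summed to 2649 and 2681 CPM for wild-type and only 352.4 and 354.6 CPM for TNFR2 KO. In bulk RNA, fewer cells of a type and less RNA per cell cannot be told apart, and the part that macrophage RNA has in the levels below was not tested.

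The stretch of DNA before the start sites of the listed genes was read for shared letters. RefSeq promoters (GRCm38.p6) were at hand for 6 of the 8 genes and for Lilr4b. Those of Pirb, Siglece and Cd300a, which differed most between genotypes among the genes with an entry, and of Cd300lf, which differed least of the genes that were lower and have an entry, are printed over the 250 bases before the start, with GAGGAA (or its reverse complement TTCCTC) in capitals. This is the core of sites bound by PU.1, an ETS factor of myeloid cells.
Pirb, chr7:3720383-3720632, minus strand: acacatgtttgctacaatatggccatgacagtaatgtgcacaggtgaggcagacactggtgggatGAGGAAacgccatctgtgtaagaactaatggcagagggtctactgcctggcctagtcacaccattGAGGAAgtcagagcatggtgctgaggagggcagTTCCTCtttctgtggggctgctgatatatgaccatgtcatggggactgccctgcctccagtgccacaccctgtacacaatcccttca
Siglece, chr7:43660162-43660411, minus strand: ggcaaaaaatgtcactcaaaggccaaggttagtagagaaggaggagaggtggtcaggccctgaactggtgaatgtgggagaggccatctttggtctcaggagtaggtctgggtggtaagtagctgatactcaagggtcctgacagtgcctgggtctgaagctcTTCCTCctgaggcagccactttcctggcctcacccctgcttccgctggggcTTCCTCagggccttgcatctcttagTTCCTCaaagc
Cd300a, chr11:114889791-114890040, plus strand: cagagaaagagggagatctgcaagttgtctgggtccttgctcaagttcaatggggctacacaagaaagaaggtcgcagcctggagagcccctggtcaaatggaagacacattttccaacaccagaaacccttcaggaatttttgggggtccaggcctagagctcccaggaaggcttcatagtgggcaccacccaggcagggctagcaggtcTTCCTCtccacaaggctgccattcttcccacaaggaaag
Cd300lf, chr11:115133993-115134242, minus strand: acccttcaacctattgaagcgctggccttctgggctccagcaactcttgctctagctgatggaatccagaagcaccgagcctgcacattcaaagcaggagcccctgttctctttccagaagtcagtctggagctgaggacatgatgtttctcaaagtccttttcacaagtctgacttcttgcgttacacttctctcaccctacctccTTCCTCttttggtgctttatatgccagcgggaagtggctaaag
On either strand of the 300-base window, from 250 bases before to 50 after the start, GAGGAA was found in all 6 of these promoters (Pirb, Siglece, Cd300a, Cd300lf, Cd33 and Trem2) and not in that of Lilr4b, while 28.3% of 32851 promoters of the same length hold it. Pirb and Siglece had 3 matches each before the start. The match in Cd300a began at -39 and that in Cd300lf at -43. A C/EBP-type motif, TTNNGCAA, matched in Cd300a and Trem2 and in 10.8% of all promoters, and TATAAA in Cd300lf and Lilr4b and in 13.6%. The letters were thus present as well in Trem2, which had next to no reads, and in Cd300lf, which differed less than the others. They are a description of the windows and not of binding, and their part in the levels was not tested. As the list was picked with the levels in view, nothing is read from its matches beside the share of all promoters.

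Sirpa encodes SIRPα, the inhibitory receptor for CD47 that holds back phagocytosis, and lies on the plus strand at chr2:129592835-129632228 (GRCm38). The wild-type libraries held 290.2 CPM and 295.03 CPM, the TNFR2 KO libraries 26.3 CPM and 27.4 CPM. Both wild-type libraries stood far above both TNFR2 KO libraries. The TNFR2 KO mean was 9.18% of the wild-type mean, a log2-fold change of -3.45 (standard error 0.0364). Among the 31-base stretches of its transcripts, the default unit by which Kallisto places reads, 0.039% occur in other genes, so hardly any of its reads could be confused with those of its relatives.

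Pirb encodes PIR-B, an inhibitory receptor that binds MHC class I, and lies on the minus strand at chr7:3711409-3720391. Its level was 91.4 and 92.7 CPM in wild-type and 10.1 and 9.70 CPM in TNFR2 KO. This is a log2-fold change of -3.22 (standard error 0.0532), with a gap between genotypes far wider than that between duplicates. As 44.1% of its stretches also occur in other genes, the level of Pirb alone is less certain than its total with the PIR cluster. Summed over Pirb, Pira1, Pira2, Pira12 and Pira13, the PIR genes held 239.4 and 234.9 CPM in wild-type against a TNFR2 KO level of 24.03 and 25.7 CPM, so that the sum was 9.54-fold higher in wild-type, beside 9.31-fold for Pirb by itself. The sum leaves out Lilra6, although 33.5% of the stretches of Lilra6 also occur in Pirb.

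Cd300a, on the plus strand at chr11:114890041-114904654, encodes an inhibitory receptor for phosphatidylserine and phosphatidylethanolamine on dying cells. It stood at 52.3 and 52.9 CPM in wild-type but at 5.61 and 6.36 CPM in TNFR2 KO cells. The log2-fold change was -3.14 (standard error 0.0703). Siglece, on the minus strand at chr7:43651070-43660161, encodes Siglec-E, an inhibitory receptor for sialic acid. Its 26.8 and 27.4 CPM in wild-type compare with 3.57 and 3.99 CPM for TNFR2 KO, or -2.85 (standard error 0.0944) as a log2-fold change. In both genes the duplicates lay close together and the genotypes were well apart. Cd33, a further sialic acid receptor at chr7:43524216-43544428 on the minus strand, was read far less often. Its counts were 107.1 and 125.1 in wild-type and 22.02 and 23.1 in TNFR2 KO, or 2.82 and 3.39 against 0.569 and 0.718 CPM. The log2-fold change was -2.27, with a standard error of 0.266 that is wider than those of the more abundant genes.

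Lilrb4a and Cd300lf were lower as well, but kept a larger share of the wild-type level. Lilrb4a encodes gp49B, an inhibitory receptor first described on mast cells, and lies on the plus strand at chr10:51490956-51496611. Its level went from 256.9 and 247.98 CPM in wild-type to 105.5 and 104.8 CPM, which left 41.6% of the wild-type level and gave a log2-fold change of -1.26 (standard error 0.0307). Cd300lf, an inhibitory lipid receptor at chr11:115116214-115133992 on the minus strand, went from 44.96 and 41.9 CPM to 17.9 and 16.2 CPM. That is 39.3% of the wild-type level and a log2-fold change of -1.34 (standard error 0.0660). In both genes the duplicates lay nearer to each other than to the other genotype.

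The row Lilrb4b, for the gp49A receptor that lacks the inhibitory tail of gp49B, measured 224.9 and 217.5 CPM in wild-type and 135.2 and 135.9 CPM in TNFR2 KO. Its log2-fold change of -0.71 (standard error 0.0299) was the smallest beside that of Trem2. In the annotation 39.1% of the stretches of Lilrb4a also occur in its neighbour Lilr4b, and 56.1% in any other gene, so reads could be split between the pair. The sum of Lilrb4a and Lilrb4b, which such a split does not touch, was 481.8 and 465.5 CPM in wild-type and 240.7 CPM in either TNFR2 KO library, or 1.97-fold higher in wild-type.

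Trem2, on the plus strand at chr17:48346401-48354147, encodes an activating receptor for lipids and apolipoproteins that signals through DAP12 and is known from microglia and tissue macrophages. It was close to absent, with 16.5 and 11.5 counts in wild-type and 15.5 and 8.5 counts in TNFR2 KO. At 0.422 and 0.325 against 0.413 and 0.250 CPM the genotypes overlapped, and its log2-fold change of -0.15 had a standard error of 0.533, so a difference was not detectable at this depth. Leaving out TNFR2 KO replicate 2 gave 0.15, and leaving out wild-type replicate 1 gave 0.05.

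**Figure D1:**
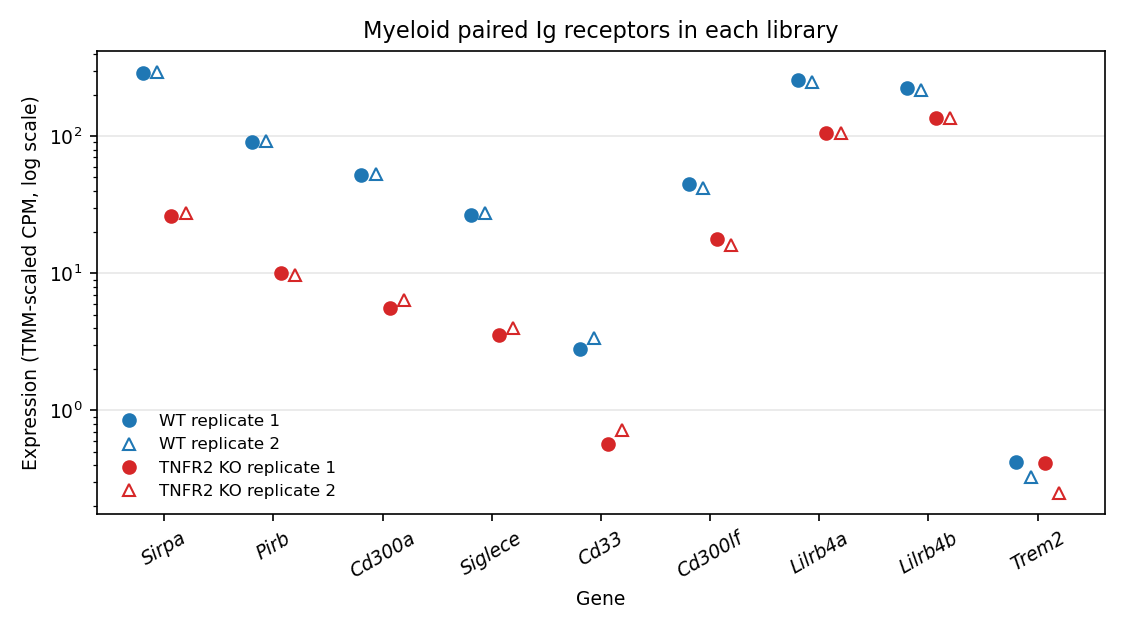
Level of the 8 receptor genes found and of Lilrb4b in each library, as TMM-scaled CPM on a log axis, with wild-type (WT) in blue, TNFR2 KO in red, replicate 1 as filled circles and replicate 2 as open triangles. Sirpa goes from about 290.2 to 26.3 CPM between genotypes and Lilrb4a from 256.9 to 105.5 CPM, while the points of Trem2 overlap below 0.5 CPM.

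All 8 genes passed the filter on low counts. Past both limits, 7 of the 8 (Trem2 being the exception) were lower in TNFR2 KO and 0 were higher, where 13.3% of all genes tested differed in either direction and 11.8% were lower. As the genes were picked from this contrast, nothing is read from that count. The median of the 8 log2-fold changes was -2.56, between -3.45 for Sirpa and -0.15 for Trem2. Just inside the limit on the fold change stood Lilrb4a at -1.26, and Trem2 was the next outside. Within the first pool of spleens the log2 ratios of TNFR2 KO over wild-type were -3.46 for Sirpa, -1.28 for Lilrb4a and -1.33 for Cd300lf, and within the second pool -3.43, -1.24 and -1.37. Apart from Pirb and Cd300a, which changed places, the order of the 8 genes by log2 ratio was the same in both pools.

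To compare levels between genes, CPM was divided by the length of the longest coding transcript in GENCODE M21. Per kilobase Lilrb4a led in wild-type with 182.8 CPM, followed by Sirpa with 73.5, Pirb with 24.1, Cd300lf with 23.03, Siglece with 14.7, Cd300a with 11.3, Cd33 with 0.542 and Trem2 with 0.343 CPM per kilobase. Pirb and Cd300lf met at 23.9 in their nearest libraries and do not differ beyond their spread, while the other neighbours in this order did not overlap. In TNFR2 KO the order of levels was Lilrb4a (76.1), Cd300lf (9.04), Sirpa (6.74), Pirb (2.59), Siglece (2.04), Cd300a (1.29), Trem2 (0.305) and Cd33 (0.112 CPM per kilobase). Cd300lf thus moved above Sirpa and Pirb in the TNFR2 KO libraries.

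The receptors were also set against the macrophage RNA of the same library, once over all 25 macrophage or monocyte markers and once over the 22 that remain without Ccr2, Ly6c2 and Cx3cr1, a choice made after the values were seen, and the comparison depends on that choice. Per 100 CPM of the 22 markers, Sirpa held 10.8 and 11.1 CPM in wild-type and 7.42 and 7.77 CPM in TNFR2 KO. Pirb held 3.41 and 3.50 beside 2.84 and 2.75 CPM, and Cd300a 1.95 and 1.997 beside 1.58 and 1.81 CPM. These 3 genes were lower in TNFR2 KO on that scale, while Siglece, with 1.0008 and 1.03 beside 1.006 and 1.13 CPM, overlapped between genotypes. Lilrb4a went from 9.58 and 9.36 CPM to 29.7 CPM in either TNFR2 KO library, Lilrb4b from 8.39 and 8.21 to 38.1 and 38.6 CPM, and Cd300lf from 1.68 and 1.58 to 5.06 and 4.59 CPM. The scarce Cd33 (0.105 and 0.128 to 0.160 and 0.204 CPM) and Trem2 (0.0157 and 0.0123 to 0.117 and 0.0708 CPM) were likewise higher in TNFR2 KO. None of the receptors had a higher mean CPM in TNFR2 KO, so the higher ratios come from the lower marker sum.

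Over all 25 markers, whose sum was 2.37-fold higher in wild-type where that of the 22 was 7.54-fold higher, the picture differed. Per 100 CPM of these, Sirpa held 8.56 and 8.87 CPM in wild-type and 1.85 and 1.95 CPM in TNFR2 KO. Pirb, Cd300a, Siglece and Cd33 were lower in TNFR2 KO as well. Lilrb4a stood at 7.58 and 7.46 CPM beside 7.40 and 7.44 CPM, and Cd300lf at 1.33 and 1.26 beside 1.26 and 1.15 CPM, so that the rise of both genes against the 22 markers was not seen. Lilrb4b, at 6.63 and 6.54 beside 9.49 and 9.65 CPM, and Trem2, at 0.0124 and 0.0098 beside 0.0290 and 0.0177 CPM, were higher in TNFR2 KO on either scale. Their own CPM was not, and for Trem2 no difference in CPM was detectable, so these ratios follow the lower marker sums. On both scales Lilrb4a, Lilrb4b and Cd300lf kept a larger share of the wild-type ratio than Sirpa, Pirb, Cd300a and Siglece. This only restates their fold changes. All genes of a library are divided by the same sum, so their order by that share is the same on any such scale. These ratios come from the contrast that picked the genes and are given without a test. The share of all genes that separate the genotypes on these scales was not counted, so nothing is read from such separation.

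**Figure D2:**
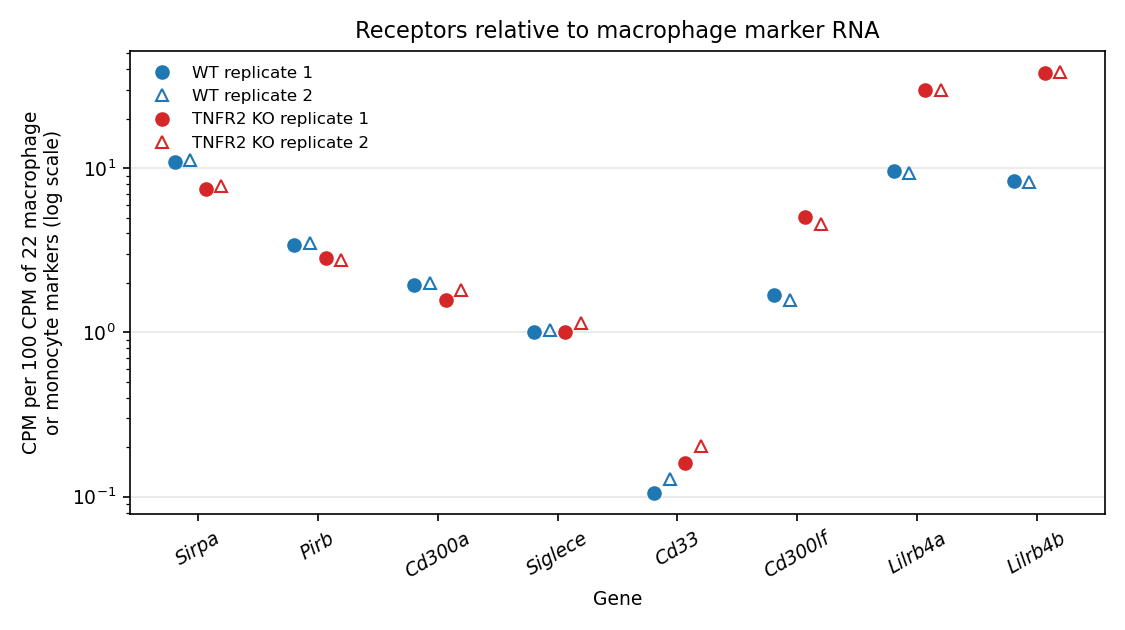
Level of Lilrb4b and of each receptor but Trem2 per 100 CPM of 22 macrophage or monocyte markers in the same library (log axis). Wild-type (WT) is in blue and TNFR2 KO in red. The genotypes overlap for Siglece, and Sirpa, Pirb and Cd300a are lower in TNFR2 KO. Lilrb4a goes from about 9.58 to 29.7 and Lilrb4b from 8.39 to 38.1. Over all 25 markers Lilrb4a did not rise.

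Markers of other cell types differed between genotypes as well, each to its own extent. All 16 neutrophil or granulocyte precursor markers fell in TNFR2 KO (adjusted p under 0.05 and absolute log2-fold change over 1, edgeR), with a median of -2.29, and their summed level went from 1045 and 1062 CPM to 110.5 and 105.5 CPM. Mpo, which encodes myeloperoxidase, had a log2-fold change of -6.50, against -2.22 for S100a9 and -2.66 for Ngp. Of 12 mast cell or basophil markers 10 fell past both limits and 1 rose, with -6.18 for the basophil protease Prss34 and -5.57 for Mcpt8 but -0.44 for Il1rl1, the receptor for IL-33. The 1 that rose was Cma1, from 22.5 to 72.6 CPM (log2-fold change 1.69, edgeR adjusted p = 3.61e-11). The 12 markers summed to 1371 and 1366 CPM in wild-type and to 169.1 and 169.6 CPM in TNFR2 KO. Among 11 dendritic cell markers tested 6 fell, chief among them the class II genes Cd74 (-3.57), H2-Ab1 (-3.49) and H2-Aa (-3.66). The list summed to 1719 and 1756 CPM against 151.6 and 150.6 CPM, most of it from class II genes. The other 5, Flt3, Zbtb46, Xcr1, Siglech and Ccr9, were scarce and did not pass an adjusted p of 0.05 (edgeR). Zbtb46 stood at 2.72 against 2.65 CPM, a log2-fold change of -0.04. None of the receptors reached the log2-fold changes of Mpo, Prss34 or Mcpt8. Their part in the receptor levels was not tested. T cell markers summed to 939.2 and 933.4 CPM against 777.9 and 786.996 CPM, led by Cd4, Cd3g and Trac at log2-fold changes of -0.56, 0.10 and -0.33, and B cell markers were near 0, with 3.16 and 3.28 CPM against 2.27 and 2.37 CPM that came mostly from Cd79b. All 12 NK cell markers rose at an adjusted p under 0.05 and 4 of them past both limits, and Gzma, Gzmb and Il2rb had log2-fold changes of 1.08, 0.75 and 0.44.

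**Figure D3:**
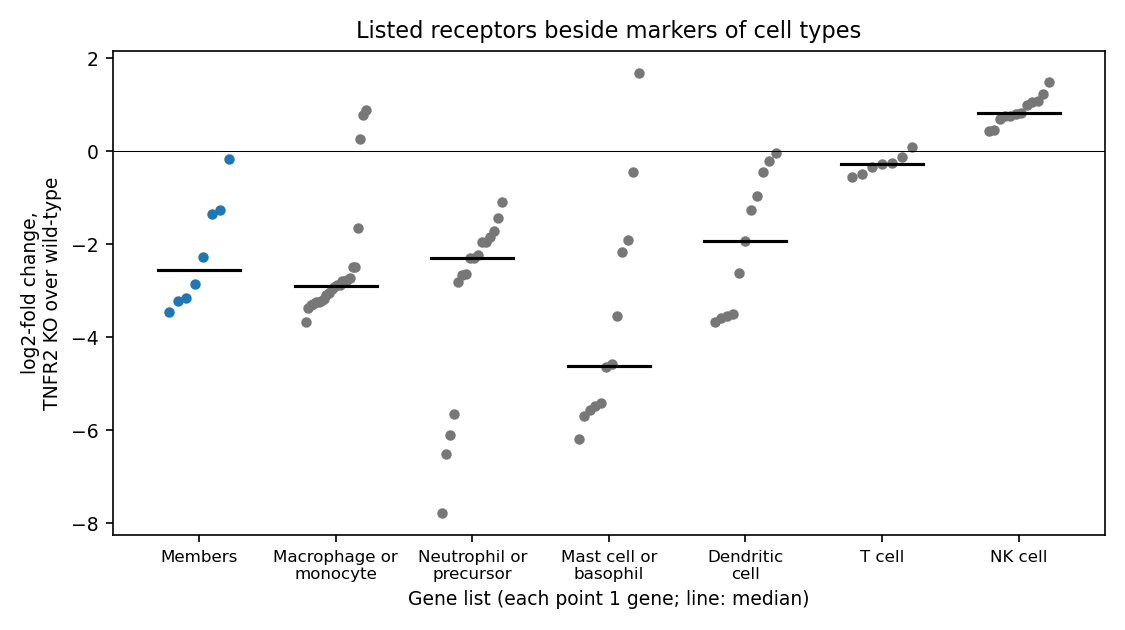
Log2-fold change (TNFR2 KO relative to wild-type) for the 8 receptors (blue) and for the tested genes of 6 marker lists (grey), with 1 point per gene and a line at each median. The receptors span -3.45 to -0.15, the macrophage or monocyte markers have a median of -2.89, and some granulocyte precursor and basophil markers lie below -5.

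Relatives of these receptors that were not on the list were tested with edgeR's quasi-likelihood test. Of 51 such Ig-type receptors 46 were in the table and 39 could be tested. In TNFR2 KO 30 of the 39 fell past both limits and 0 rose past them, where 11.8% and 1.56% of all genes tested did. A further 3 were lower and 3 higher at an adjusted p under 0.05 but short of the limit on the fold change, and 3 did not pass. The median log2-fold change over the 39 was -2.83.

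All 5 members of the SIRP family that were tested fell. Sirpb1a, Sirpb1b and Sirpb1c, DAP12-coupled activating counterparts of SIRPα, measured 17.1 ± 1.32, 16.7 ± 1.05 and 17.045 ± 0.830 CPM in wild-type, beside TNFR2 KO levels of 1.80 ± 0.381, 2.36 ± 0.234 and 1.99 ± 0.324 CPM (SD, n = 2 each). Their log2-fold changes were -3.24, -2.83 and -3.11, and the highest edgeR adjusted p of the 3 was 2.30e-09. As between 54.5% and 72.2% of their stretches are shared with other genes, their sum is the firmer value, at 51.7 and 50.1 CPM for wild-type and 6.02 and 6.27 CPM for TNFR2 KO.

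In the PIR and LILR family 6 of 6 fell. Pira2, an activating PIR-A receptor that pairs with FcRγ, went from 85.8 ± 4.67 to 7.81 ± 1.62 CPM (SD, n = 2 each; log2-fold change -3.47, edgeR adjusted p = 9.65e-12), though 96.7% of its stretches occur in other genes. Pira12, Lilra6 and Pira1 had log2-fold changes of -3.40, -2.91 and -2.70. The values of these genes lay on either side of the -3.22 of Pirb. As reads could be split within the cluster, separate changes of the activating PIR-A genes and the inhibitory Pirb cannot be told apart.

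Of 6 related Siglecs tested 3 fell past both limits and 0 rose past them. A further 2 were higher at an adjusted p under 0.05 but short of the limit on the fold change, and 1 did not pass. Siglec1, the sialoadhesin of spleen and lymph node macrophages, fell from 82.1 ± 0.776 to 8.27 ± 0.439 CPM (SD, n = 2 each; edgeR adjusted p = 3.25e-13). Its log2-fold change was -3.31 (standard error 0.0582), beside -2.85 (standard error 0.0944) for Siglece. Cd22, best known as an inhibitory receptor of B cells, rose from 12.009 ± 0.610 to 22.6 ± 0.738 CPM, a log2-fold change of 0.91 (edgeR adjusted p = 9.85e-07). Mag rose by 0.64 on the same scale (edgeR adjusted p = 0.000203). Neither Cd22 nor Mag passed the limit of 1, while with scaling on NK lineage genes Cd22 remained higher at 0.36 and Mag no longer passed (0.09).

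All 7 tested genes of the CD300 family fell, and they varied as Cd300a and Cd300lf did. Cd300c2 and Cd300ld, activating relatives that lie between both genes on chromosome 11, had log2-fold changes of -3.52 and -2.98. Cd300e followed with -2.53 and Cd300lb with -1.68, from 10.9 ± 1.07 to 3.41 ± 0.0331 CPM (SD, n = 2 each; edgeR adjusted p = 5.22e-07). In the TREM family 3 of 4 fell past both limits. Treml4 went from 25.7 ± 0.392 to 2.88 ± 0.342 CPM (log2-fold change -3.17, edgeR adjusted p = 1.20e-10), while Treml2, which is also found on lymphoid cells, was at 34.9 ± 0.775 and 24.2 ± 0.0613 CPM (log2-fold change -0.53, edgeR adjusted p = 5.65e-06; SD, n = 2 each).

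Among the other Ig-type receptors 6 of 11 fell past both limits. Igsf6 (-3.55), Pilra (-3.40) and Pilrb1 (-2.27), the last pair being an inhibitory and an activating receptor of 1 family, were among them, and Milr1, an inhibitory receptor of mast cells, fell by 1.11 on the log2 scale. Lair1, a collagen receptor found on many leukocytes including NK cells, fell from 69.2 ± 4.53 to 44.1 ± 0.681 CPM (log2-fold change -0.65, edgeR adjusted p = 4.50e-07; SD, n = 2 each), and the CD200 receptor gene Cd200r1 had -0.70. Cd200r4 rose, with 0.46, but scaling on NK lineage genes gave -0.086. Vsir, which encodes the checkpoint protein VISTA, held 190.2 ± 5.91 and 196.2 ± 5.28 CPM (SD, n = 2 each). Its log2-fold change of 0.04 did not pass (edgeR adjusted p = 0.286) and took the other sign with library size alone (-0.017) and with NK lineage genes as the scale (-0.51).

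The molecules through which the receptors signal are shared with NK cells and were measured at a high level in both genotypes. Of 20 phosphatases, adaptors, kinases and ligands 3 (Lyn, Apoe and Clu) fell past both limits and 0 rose past them. At an adjusted p under 0.05 without the limit on the fold change, 7 were lower and 10 higher, where 26.2% and 24.2% of all genes tested were, and their median log2-fold change was 0.06, beside -2.83 for the related receptors.

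The ITIM-binding phosphatase SHP-1, encoded by Ptpn6, was at 263.2 ± 5.86 CPM in wild-type and fell to 178.6 ± 2.64 CPM in TNFR2 KO (SD, n = 2 each; log2-fold change -0.56, edgeR adjusted p = 8.58e-09). Ptpn11, for SHP-2, did not pass at 0.04 (edgeR adjusted p = 0.416), and Inpp5d, for the lipid phosphatase SHIP-1, rose by 0.15 (edgeR adjusted p = 0.000448). The adaptor of the activating receptors DAP12, encoded by Tyrobp and also used by Ly49H itself, rose from 394.9 ± 7.16 to 710.1 ± 33.4 CPM (SD, n = 2 each; log2-fold change 0.85, edgeR adjusted p = 3.65e-10). Fcer1g, for FcRγ, and Hcst, for DAP10, rose by 0.52 and 0.92, while the kinase gene Syk and its substrate Plcg2 rose by 0.13 each. Vav1 did not pass at -0.0042. With scaling on NK lineage genes, which put the median of all genes at -0.55, Inpp5d, Fcer1g, Syk and Plcg2 turned negative, and Tyrobp and Hcst stayed positive at 0.30 and 0.37.

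Src family kinases phosphorylate ITIMs and ITAMs. Of these, Lyn fell by 1.02 and Fgr by 0.35 on the log2 scale, and Csk, which restrains these kinases, rose by 0.14. Of the adaptors that bind SIRPα, Skap2 fell (-0.50) and so did Fyb (-0.13), and the kinase gene Ptk2b rose by 0.09. Scaling on NK lineage genes turned Csk to -0.41 and Ptk2b to -0.47.

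The ligands were divided likewise. Cd47, the ligand of SIRPα, rose slightly from 522 ± 4.32 to 567.3 ± 8.79 CPM (SD, n = 2 each; log2-fold change 0.12, edgeR adjusted p = 0.00132), and B2m, which encodes the light chain of the MHC class I ligands of PIR-B, rose by 0.13 (edgeR adjusted p = 0.000124). Scaling on NK lineage genes turned them to -0.43 and -0.42. Rtn4, a further ligand of PIR-B, did not pass at -0.08 (edgeR adjusted p = 0.0564). Apoe and Clu, ligands of TREM2, fell with log2-fold changes of -2.06 and -3.25, from 9.54 ± 0.154 and 0.962 ± 0.0185 CPM in wild-type (SD, n = 2 each). Clu was near the limit of detection in TNFR2 KO, at 0.155 and 0.0312 CPM, and its log2-fold change was -4.79 without TNFR2 KO replicate 1 and -2.60 without TNFR2 KO replicate 2.

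**Figure D4:**
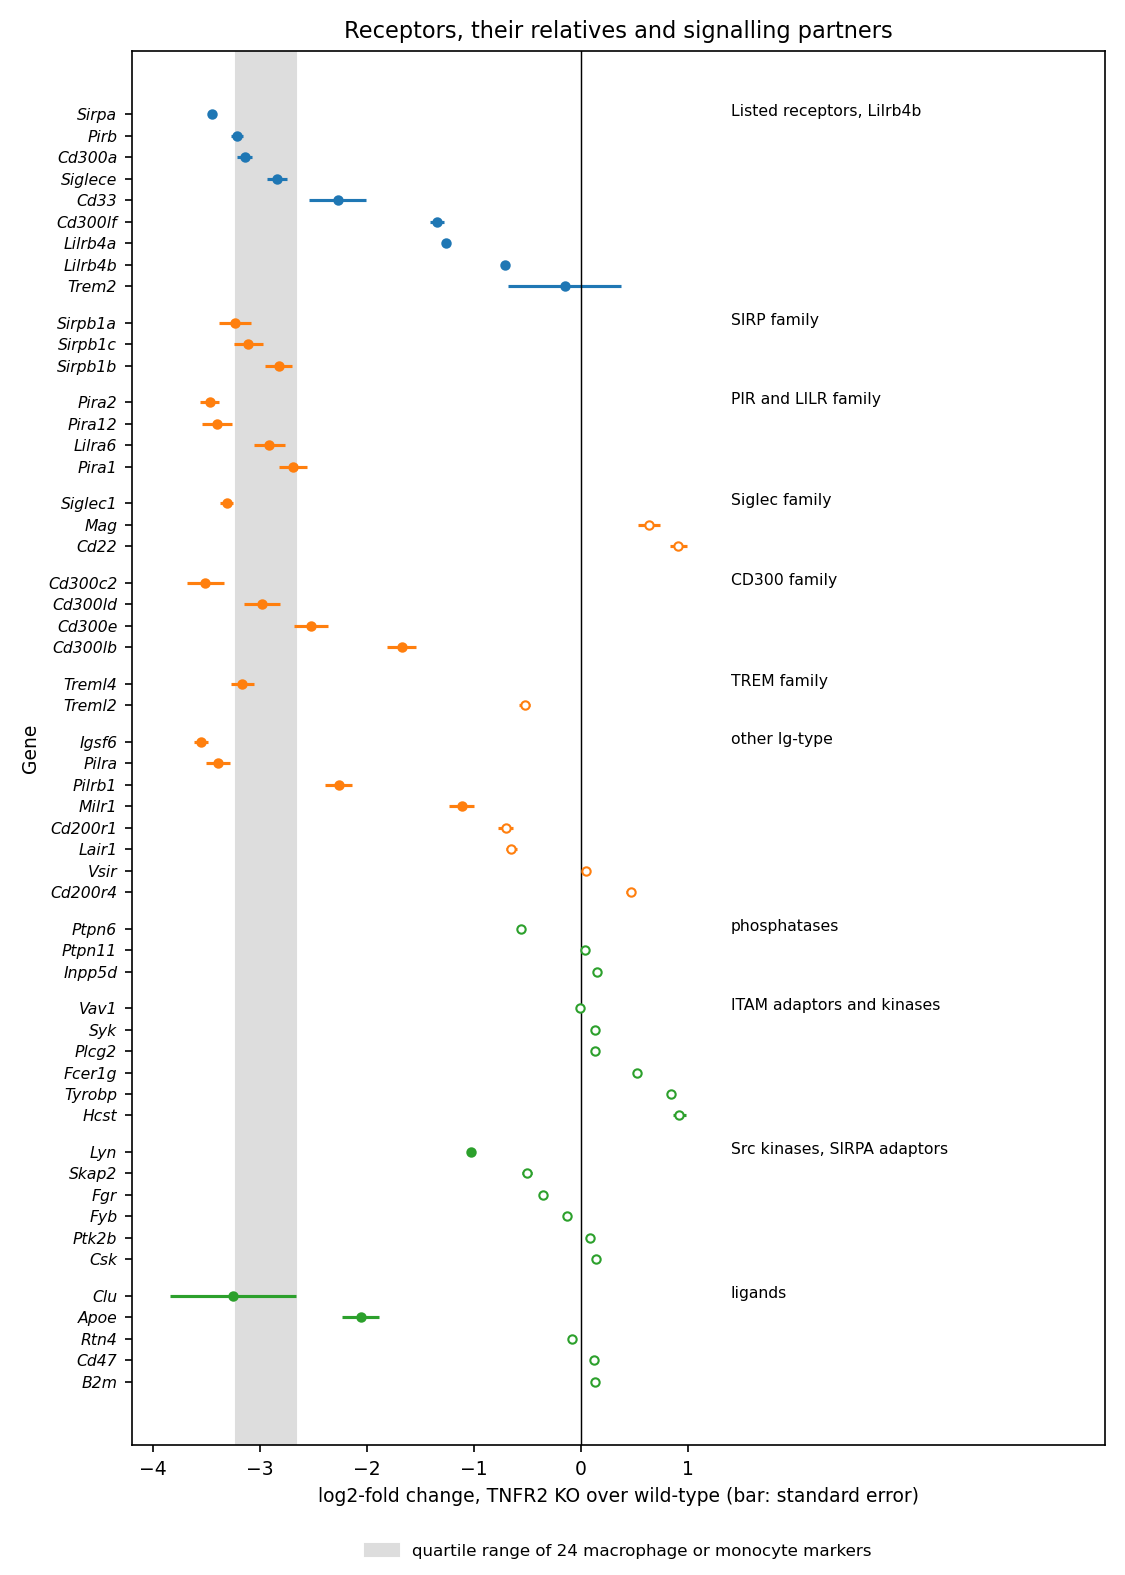
Log2-fold change (TNFR2 KO relative to wild-type) with its standard error for the receptors and Lilrb4b (blue), related receptors (orange) and signalling partners (green), by family. Open orange and green symbols did not pass both limits in edgeR's test, and the blue points are given without a test. The grey band spans the quartiles of the macrophage or monocyte markers, from -3.23 to -2.66. Pirb (-3.22), Cd300a (-3.14) and Siglece (-2.85) lie in the band. Sirpa lies below it, and Cd33, Cd300lf, Lilrb4a, Trem2 and Lilrb4b lie above it.

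Over the 4 libraries, the genes with a pattern most like that of the receptors were sought among 8870 further genes with at least 10 CPM in wild-type, by the distance between centred log2(CPM + 0.5) profiles. Nearest to the median profile of the 8 receptors were Camp (distance 0.0487), Calhm6, Rab20, Tnfrsf1b and Hebp1 (0.111). Nearest to Sirpa alone were Anpep (0.0239), Hdc and H2-Ab1, with log2-fold changes of -3.83, -3.54 and -3.49, and nearest to Lilrb4a were Lamp1 (0.0248), Zfp710 and Cdc42ep4, with -1.29, -1.32 and -1.38. With only 2 genotypes such a distance mostly ranks genes by the size of their difference.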

How the data were processed

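RNA-seq was performed on 4 libraries, 2 per genotype. The authors trimmed the reads with Trimmomatic, assigned them to mm10 transcripts with Kallisto (v.0.46.1) and summed them per gene with Tximport, and they deposited the resulting expected counts by gene symbol, unscaled. The sources do not name the transcript annotation. A row without a gene name (between 0.0559% and 0.0728% of counts) was left out. Expected counts were rounded, filtered with filterByExpr, scaled by TMM and compared by the quasi-likelihood test of edgeR 4.0.16 (R 4.3.3), fitted on genotype alone, and p was adjusted by Benjamini-Hochberg over 13822 genes. A gene was called where the adjusted p was under 0.05 and the log2-fold change beyond 1 in either direction, the limits of the study. Each standard error was derived from that fit, as the absolute log2-fold change divided by the square root of the F statistic. Steps were tested on simulated data. Exact permutation of 2 against 2 libraries cannot go below 0.333, so no such test was run.

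Labels state that same-numbered libraries share a spleen pool, which pairs them. Over genes, their deviations from the genotype means correlated with r = 0.0487. The duplicates differed by more than sampling noise (mean chi-square per gene of 2.86 and 3.00, where noise alone gives about 1).

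The receptors and gene lists were chosen with earlier results of these data known. A withheld gene is not reported here and was left out of the lists. Genes named are the receptors, Tnfrsf1b, all signalling partners, related receptors with at least 10 CPM in either genotype, the 3 most abundant genes of each marker list and the nearest profiles. Klra8, Ncr1, Klrb1c, Ly6c2, Cx3cr1, Cma1, Flt3, Zbtb46, Xcr1, Siglech and Ccr9 were added after their values were seen. Positions and transcripts are from GENCODE M21 (GRCm38), promoters from RefSeq. Alternatives were other scalings, filters, DESeq2 1.42.0, the replicate block and each library left out. Scaling on NK lineage genes set the summed counts of a list of such genes equal in every library. Plots used matplotlib 3.10.9 under Python 3.11.15.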

Additional observations from a re-analysis of the deposited data

How the results depend on the processing

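Of the 8 receptors, 7 were lower past both limits as described above, where 11.8% of all genes tested were. The count was also 7 under each alternative that kept all 4 libraries, apart from the filter at a mean of 10 CPM. That filter left 6 receptors in the table, all 6 lower, where 420 of the 8762 genes tested were. It moved the median log2-fold change of the receptors to -3.03. As the genes were picked from this contrast, nothing is read from these counts. The 10 CPM filter also left 478 calls among all genes, 8 among 15 related receptors and 1 among 18 partners, as fewer genes were tested. Scaling on NK lineage genes gave 5 calls in place of 3 among the partners and moved the median of the receptors to -3.11, and leaving out each library in turn gave medians from -2.68 to -2.42. With the replicate block, 1830 genes were called in place of 1842, and the block changed no other call named here. Under NK lineage scaling the following log2-fold changes reversed: Cd200r4 (-0.086), Vsir (-0.51), Ptpn11 (-0.52), Inpp5d (-0.40), Fcer1g (-0.028), Syk (-0.42), Plcg2 (-0.42), Csk (-0.41), Ptk2b (-0.47), Cd47 (-0.43) and B2m (-0.42). Library size alone reversed Vsir (-0.017) and Ptpn11 (-0.025), and the 10 CPM filter Ptpn11 (-0.00081). Vav1 turned to 0.0049 with upper-quartile scaling and 0.0014 without a filter, and spanned -0.0060 to 0.014 over the fits that leave out a library, where Trem2 spanned -0.57 to 0.15. Ptk2b, Plcg2, Cd47, Mag, Fcer1g and Cd200r4 lost an adjusted p under 0.05 under at least 1 alternative, and Rtn4, Vav1, Vsir and Ptpn11 gained one. NK lineage scaling also brought Treml2, Lair1, Cd200r1, Ptpn6 and Skap2 past both limits, with 34 related receptors called in place of 30. The cause was not tested. Depth limits Trem2, Clu and Cd33, and a spread taken from 2 pools may leave out differences between mice.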
